A study of Mus musculus with 6 samples.

Results

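A set of 9 miRNAs known from neurons was followed in mouse hepatoma tumours: mmu-miR-124-3p, mmu-miR-9-5p, mmu-miR-9-3p, mmu-miR-128-3p, mmu-miR-132-3p, mmu-miR-212-3p, mmu-miR-137-3p, mmu-miR-138-5p and mmu-miR-153-3p, written below without the species prefix. They were chosen by name, as 9 of the 1881 mouse miRNAs on the array, and every probe listed under their names was examined. The tumours grew in C57BL/6 mice inoculated in the right flank with the mouse hepatoma line Hepa1-6. GLE, an abbreviation that the labels leave unexplained, was given to 3 mice. Its daily dose was 0.023 g when reckoned for 10 g of body weight, and the length of this treatment is not stated. The model group, 3 mice with tumours of the same kind, received 0.2 ml of 0.9% NaCl once a day for 28 days. An age of 28 days is given for both groups. It equals the length of the saline treatment and may be the time on treatment rather than the age of the mice. Total RNA of each tumour was labelled with Cy3, a green fluorescent dye, and hybridised to its own 1-colour array, so that each group held 3 mice. The RNA is that of whole tumours, so fewer cells of a type and less RNA per cell cannot be told apart.

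A miRNA is a short RNA that pairs with target messages mainly through its seed, the bases from position 2 to 8, and lowers the output of those messages. The set chosen here is known from the nervous system. miR-124 is among the most abundant miRNAs of neurons and holds down messages of other cell types, miR-9 acts in neural progenitors and neurons from both arms of its hairpin, and miR-128 limits neuronal excitability. miR-132 and miR-212 come from one locus that the transcription factor CREB switches on, miR-137 acts in neural stem cells and maturing neurons, miR-138 in dendritic spines, and miR-153 on proteins of synaptic vesicles.

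The mature sequences are shown because the seed decides which members can share targets. They are taken from RefSeq (GRCm38.p6), where 8 of the 9 members were matched by name. The longer probes of these 8 pair from the last base of the miRNA towards its seed. They take in from 0 bases of the seed (miR-138-5p and miR-212-3p) to 7 (miR-128-3p). The sequences are written 5′ to 3′ with the seed in capitals.
miR-9-5p: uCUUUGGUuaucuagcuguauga
miR-9-3p: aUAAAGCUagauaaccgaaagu
miR-128-3p: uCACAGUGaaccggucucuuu
miR-132-3p: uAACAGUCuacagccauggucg
miR-212-3p: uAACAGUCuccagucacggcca
miR-137-3p: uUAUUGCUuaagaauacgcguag
miR-138-5p: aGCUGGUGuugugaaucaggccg
miR-153-3p: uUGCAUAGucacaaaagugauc
Among these 8, the seed AACAGUC of miR-132-3p and miR-212-3p was the only one held by more than 1 member. These 2 were identical at 17 of 22 bases, of which 10 of the 15 bases outside the seed.

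Each member had 2 probes on the array, the longer of which repeats the shorter and adds 1 base at its 3′ end. The longer probes of the members that gave a signal are shown 5′ to 3′ with the added base in capitals, because the results rest on them.
miR-128-3p probe: aaagagaccggttcactgtG
miR-132-3p probe: cgaccatggctgtagA
miR-212-3p probe: tggccgtgactggA
miR-9-3p probe: actttcggttatctagctT
The probe for miR-128-3p has 20 bases and pairs with bases 2 to 21 of the miRNA. That for miR-132-3p has 16 bases and pairs with bases 7 to 22, which takes in 2 bases of the seed. That for miR-212-3p has 14 bases, pairs with bases 9 to 22 and touches 0 bases of the seed. The seed that miR-132-3p and miR-212-3p share was therefore largely outside what their probes read. The longest run of the miR-132-3p probe's complement found in miR-212-3p was 4 bases, and the longest run of the miR-212-3p probe's complement found in miR-132-3p was 5 bases. Longer runs stood elsewhere among the 1678 other mature miRNAs compared. They reached 10 bases in miR-1911-5p for the miR-132-3p probe and 8 bases in miR-12202-3p for the miR-212-3p probe.

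In the scanner files, whose positions are on mm9 and are printed as given there, the probe for miR-212-3p lies at chr11:74986954-74986966 and that for miR-132-3p at chr11:74987232-74987246. Both of these intervals, as given, are shorter than the probe itself. The probe for miR-128-3p has 2 positions, chr1:130098982-130099001 and chr9:112021188-112021207. The probe for miR-9-3p has 3, chr3:88019577-88019595, chr7:86650207-86650225 and chr13:83878466-83878484, so these arrays cannot say which copy a signal came from. By name in RefSeq, Mir128-1 overlaps the protein-coding gene R3hdm1 and Mir128-2 overlaps Arpp21, a gene of neurons. The 3 miR-9 genes overlap the long non-coding RNA genes Gm3764, Mir9-3hg and C130071C03Rik, Mir138-2 overlaps Nup93, which encodes a nuclear pore protein, and Mir153 overlaps Ptprn2, which encodes a protein of secretory vesicles.

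The arrays detected 378 to 458 miRNAs each, with 396, 456 and 432 on GLE replicates 1 to 3 and 458, 387 and 378 on model replicates 1 to 3. Detection of a probe means that the scanner software had marked over 0.5 of the spots used on that array as well above background, and a miRNA was detected with any of its probes. All 6 arrays lay on 1 slide and were read in 1 scan, with the GLE arrays in slide row 1 and the model arrays in slide row 2, so that slide row and group cannot be told apart. As a check of the tissue, markers of blood cells (5 of 5), of fibroblasts and smooth muscle (5 of 5) and of skeletal muscle (3 of 3) were detected on all 6 arrays. Of the 5 hepatocyte markers, miR-192-5p and miR-148a-3p were detected on all 6 arrays and miR-194-5p on 5, while miR-122-5p, the main miRNA of hepatocytes, passed on a single array of each group and miR-802-5p on 0.

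Of the 9 neuronal miRNAs, 3 were detected in every tumour, 1 in a single tumour and 5 in none. miR-128-3p, miR-132-3p and miR-212-3p were detected on all 6 arrays, which is 33.3% of the set, against 349 of the 1881 miRNAs on the array, or 18.6%. miR-9-3p was detected on GLE replicate 3 only. miR-124-3p, miR-9-5p, miR-137-3p, miR-138-5p and miR-153-3p were detected on 0 arrays, which is 55.6% of the set, against 73.5% of all miRNAs on the array. The number of members detected was 3, 3 and 4 on GLE replicates 1 to 3 and 3 on each of the 3 model arrays. The groups thus differed in this count by miR-9-3p on 1 array.

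**Figure D1:**
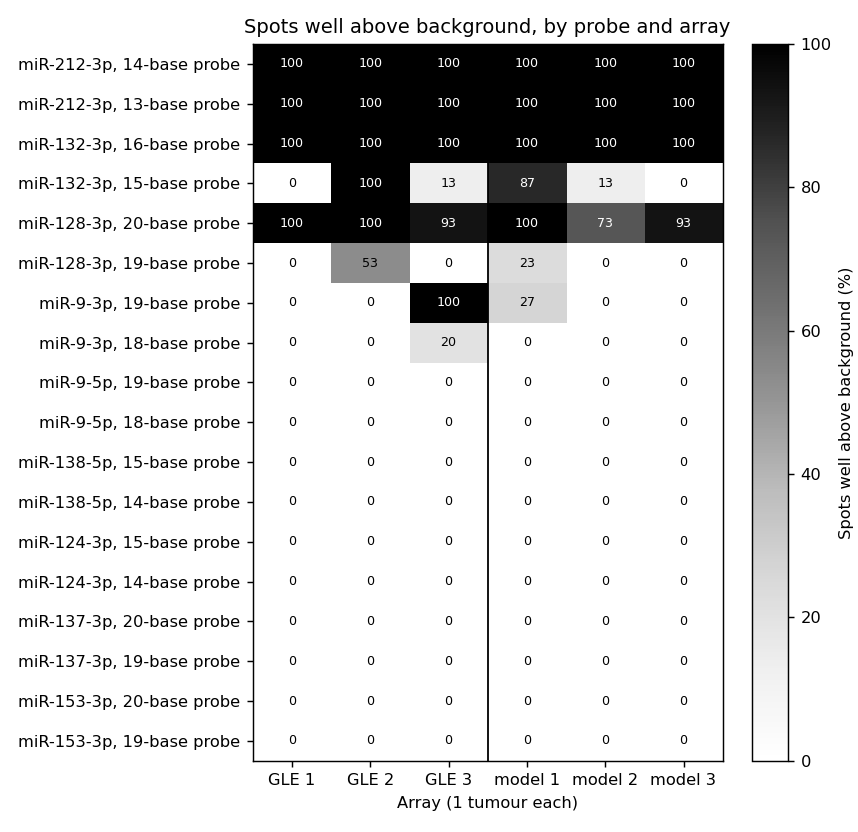
The share of used spots that were well above background, in percent, for each of the 18 probes of the 9 neuronal miRNAs (down) on each of the 6 arrays (across, GLE left of model). Both probes of miR-212-3p read 100% throughout, the longer probes of miR-132-3p and miR-128-3p lay at 73% or more on every array, and the 10 lowest probe lines hold 0 on every array.

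Detection depended on the probe as well as on the miRNA. The 20-base probe of miR-128-3p was detected on all 6 arrays, with 100%, 100% and 93.3% of its spots well above background on GLE replicates 1 to 3 and 100%, 73.3% and 93.3% on model replicates 1 to 3. Its 19-base probe, which lacks the base that pairs with the first base of the seed, was detected on GLE replicate 2 alone, with 53.3% of spots, and stood at 23.1% on model replicate 1. The 16-base probe of miR-132-3p had 100% of its spots well above background on every array. Its 15-base probe was detected on GLE replicate 2 (100%) and on model replicate 1 (86.7%), and reached 13.3% on GLE replicate 3 and on model replicate 2. For these 2 miRNAs, therefore, the longer probe alone entered the comparison of groups. miR-212-3p needed no such choice, since all spots of both its probes were well above background on all 6 arrays.

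The 3 members detected throughout were compared between GLE and model tumours in limma's fit over all 388 miRNAs that could be tested. No miRNA passed an adjusted p of 0.05 (0 of 388, 0%), the smallest adjusted p was 0.935, and 6 of the 388 (1.55%) had an unadjusted p under 0.05. None of the 3 neuronal miRNAs was among those 6. That count moved with single arrays: it was 109 of 399 (27.3%) without GLE replicate 2 and 0 without GLE replicate 1, GLE replicate 3 or model replicate 2, 1 without model replicate 1 and 3 without model replicate 3. The number past the adjusted threshold was 0 in each case. The number of arrays limits the precision, and the median reach to either side of the 95% intervals was 0.54 (log2). Levels below are log2 values relative to each array's 75th percentile among probes seen on every array, and differences are GLE minus model ± SE.

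miR-128-3p had the largest difference of the 3, and its groups overlapped. Its 20-base probe read intensities of 25.1, 38.5 and 18.6 on GLE replicates 1 to 3, against 28.7, 17.3 and 18.5 on model replicates 1 to 3. After scaling, the levels were −3.02, −3.24 and −3.69 in GLE tumours and −3.44, −3.74 and −3.51 in model tumours. GLE replicates 1 and 2 lay above every model tumour, while GLE replicate 3 lay below 2 of the 3. The means were −3.32 ± 0.34 in GLE tumours and −3.56 ± 0.15 in model tumours (n = 3 mice each, ± SD). The difference was 0.25 ± 0.22, a fold of 1.19 with a 95% interval of 0.829 to 1.70 (adjusted p = 0.935, limma). Its size depended on single arrays: without GLE replicate 3 it was 0.43, and without GLE replicate 1 it was 0.11.

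miR-132-3p, which neuronal activity induces through CREB, lay at nearly the same mean level in both groups. Its 16-base probe read 21.2, 49.0 and 28.0 in GLE tumours, against 37.5, 27.2 and 20.2 in model tumours. The scaled levels were −3.26, −2.89 and −3.10 in GLE tumours and −3.06, −3.08 and −3.38 in model tumours. The highest value was GLE replicate 2 and the lowest model replicate 3, while GLE replicates 1 and 3 both lay below model replicates 1 and 2. The means were −3.08 ± 0.18 in GLE tumours and −3.18 ± 0.18 in model tumours (n = 3 mice each, ± SD), a difference of 0.091 ± 0.18 and a fold of 1.07 with a 95% interval of 0.789 to 1.44 (adjusted p = 0.950, limma). The sign had no hold: leaving out GLE replicate 2 gave −0.0043, and leaving out model replicate 3 gave −0.013.

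miR-212-3p, the partner of miR-132-3p at the same locus, was the one member whose 2 probes both entered the comparison. The 14-base probe read 245, 367 and 267 in GLE tumours, against 332, 253 and 379 in model tumours. The 13-base probe read 133, 186 and 145 in GLE tumours, against 164, 107 and 161 in model tumours. The scaled levels of the miRNA were −0.17, −0.48 and −0.29 in GLE tumours and −0.42, −0.49 and 0.23 in model tumours. Model replicate 3 stood above the other 5 tumours, which spanned −0.49 to −0.17 with both groups mixed. The means were −0.31 ± 0.16 in GLE tumours and −0.23 ± 0.40 in model tumours (n = 3 mice each, ± SD), a difference of −0.086 ± 0.24 and a fold of 0.942 with a 95% interval of 0.640 to 1.39 (adjusted p = 0.958, limma). Without model replicate 3 the difference was 0.14.

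**Figure D2:**
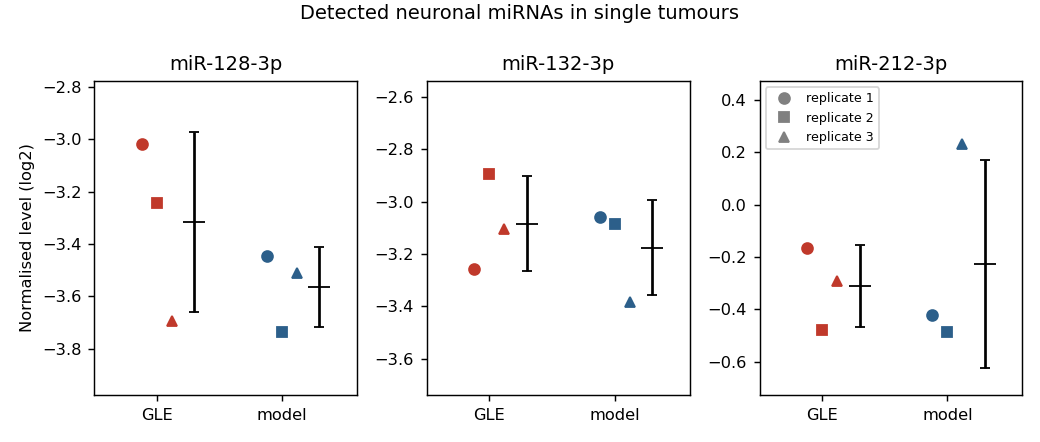
Normalised log2 level of the 3 neuronal miRNAs detected on all arrays, 1 point per tumour, with GLE tumours left of model tumours and marker shape giving the replicate number; the bar beside each group is the mean ± SD over 3 tumours. Each panel spans 1.2 log2 units and has its own range. The groups overlap in all 3 panels, and model replicate 3 stands apart for miR-212-3p.

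All 3 members had overlapping groups, whereas 26 of the 388 tested miRNAs (6.7%) had groups that did not overlap, 18 of them with GLE above (4.64%) and 8 with GLE below (2.06%). Of the 3 differences, 2 were positive and 1 was negative, while 198 of the 388 tested miRNAs (51%) had a positive difference. The median difference of the 3 was 0.091, against 0.0078 over all 388. The size of the difference exceeded that of 64.4% of the tested miRNAs for miR-128-3p, of 29.4% for miR-132-3p and of 27.3% for miR-212-3p. The middle 95% of all tested differences ran from −0.43 to 0.70.

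**Figure D3:**
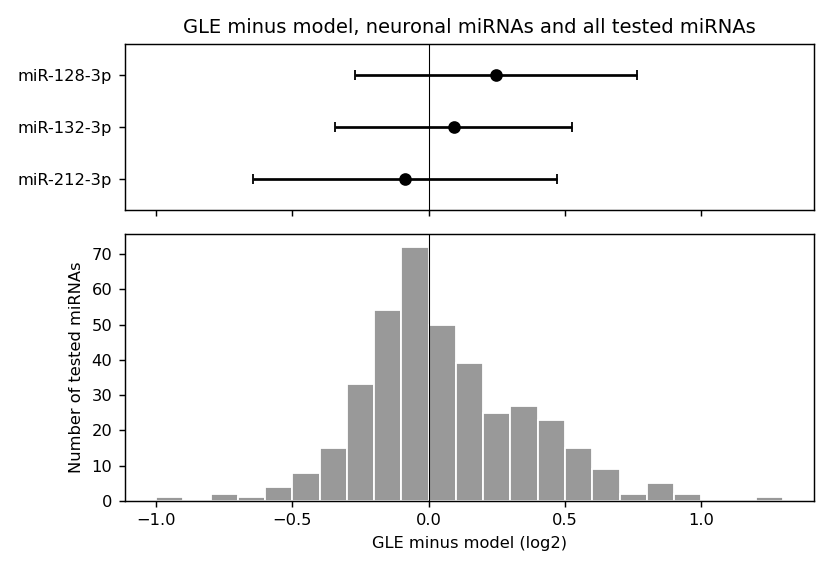
Upper panel, the GLE minus model difference (log2) of the 3 tested neuronal miRNAs with its 95% interval from limma; lower panel, the number of the 388 tested miRNAs in each bin of 0.1 log2 units of the same difference. The 3 intervals cross 0, and the 3 estimates (0.25, 0.091 and −0.086) lie within the bulk of the distribution, whose middle 95% runs from −0.43 to 0.70.

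The 14-base probe of miR-212-3p had spots of 2 brightness classes, which was seen only after its values had been examined. On GLE replicates 1 to 3, 6, 4 and 5 of its 15 spots read under 0.6 of the array's median spot, and on model replicates 1 to 3 it was 3, 3 and 2 of 15. Within an array the median of the low spots was 0.397, 0.413 and 0.378 of that of the other spots in GLE tumours, and 0.389, 0.388 and 0.352 in model tumours. The scanner software had flagged 0 of these low spots as outliers on the 3 GLE arrays and on model replicate 1, but all 3 on model replicate 2 and both on model replicate 3. The low spots therefore stayed in the average on 4 arrays and were left out on 2. The coefficient of variation among used spots was 41.3%, 33.1% and 38.7% in GLE tumours, against 29.8%, 4.23% and 3.04% in model tumours. For comparison, 5 of the 276 probes with a mean intensity of at least 100 (1.81%) exceeded a variation of 25% on 4 or more arrays.

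Taking the median of the used spots instead gave the 14-base probe 319, 442 and 325 in GLE tumours and 378, 257 and 377 in model tumours. Its difference was −0.21 with the mean of used spots and −0.0056 with their median. The 13-base probe had 2, 1 and 3 low spots on GLE replicates 1 to 3 and 1, 0 and 1 on model replicates 1 to 3, all of them flagged, and its used spots varied by 5.05% to 6.84%. Its difference was 0.039 with the mean and 0.013 with the median. With the median of used spots the difference of the miRNA was 0.0035, and with the median of all spots it was 0.016, so the negative sign given above did not hold. Why the low spots arose was not tested.

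**Figure D4:**
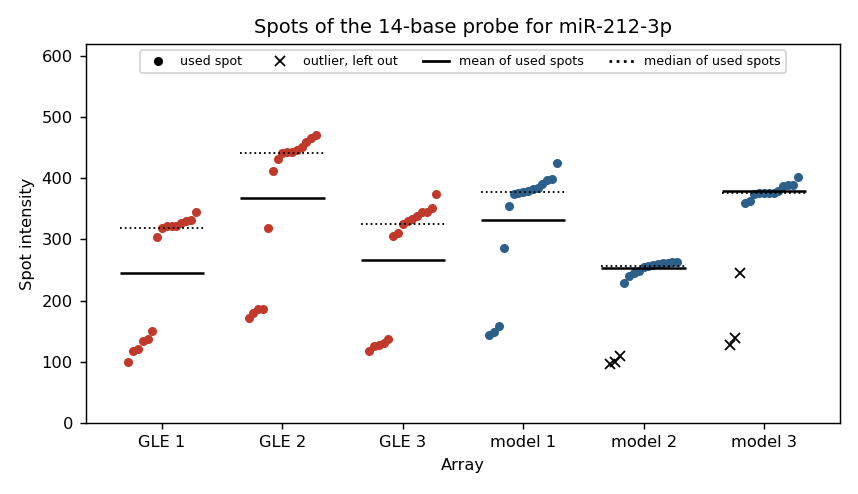
Intensity of each of the 15 spots of the 14-base probe for miR-212-3p on each array, GLE left of model; crosses are spots that the scanner software flagged as outliers, the solid line is the mean and the dotted line the median of the used spots. Low spots pull the mean under the median on the 3 GLE arrays and on model replicate 1, where none was flagged, and were left out on model replicates 2 and 3.

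The members not detected throughout differed among themselves in how near to background they lay. For reference, the lowest intensity of a detected probe was 11.8 to 13.2 across the 6 arrays, and the 1000 negative control spots of an array averaged −0.95 to 0.74 with an SD of 2.63 to 4.04. Negative readings arise because the scanner software had subtracted the background. No difference between groups is given for these 6 miRNAs, since neither group measured any of them on all its arrays.

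miR-9-3p stood out on 1 array. Its 19-base probe read 8.64, 5.30 and 23.6 in GLE tumours, against 12.6, 2.96 and 7.06 in model tumours. All 15 used spots were well above background on GLE replicate 3 and 4 of 15 on model replicate 1, with 0 on the other 4 arrays. Before scaling between arrays its 18-base probe had the same 2 arrays on top, with 3.82, 3.20 and 11.6 in GLE tumours and 5.95, 0.593 and 4.61 in model tumours. On GLE replicate 3, 3 of its 15 spots were well above background. On these unscaled intensities GLE replicates 1 and 2 fell between the lowest and the highest model tumour with both probes. After scaling (linear), the 19-base probe read 0.0426 in GLE replicate 1, above every model tumour, the highest being 0.0403 in model replicate 1. The 18-base probe then had GLE replicate 3 on top (0.0482), followed by model replicate 3 (0.0219) and model replicate 1 (0.0190). These scaled values all lay below the floor of −4.25 (log2). A run of 12 bases complementary to the 19-base probe also stands in miR-9b-3p.

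miR-9-5p, cut from the opposite arm of the same hairpins, was not well above background on any spot of any array. Its 19-base probe read 1.28, −0.15 and 2.97 in GLE tumours, against 2.02, 0.24 and 1.33 in model tumours, and 27.3% of its spots passed the scanner software's looser flag of positive and significant. GLE replicate 3 was thus its highest array, as for miR-9-3p, and the one array where over 0.5 of its spots passed that looser flag (9 of 15 spots, 60%). Its 18-base probe passed that looser flag on 4.60% of spots.

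miR-138-5p was detected on 0 arrays but passed the looser flag on many of its spots. Its 15-base probe read 2.49, 8.13 and 5.17 in GLE tumours, against 7.32, 4.13 and 4.75 in model tumours, and its 14-base probe 2.00, 4.74 and 2.53 in GLE tumours, against 3.70, 0.246 and 2.92 in model tumours. No spot was well above background, yet 77.5% of the spots of the 15-base probe and 50.6% of those of the 14-base probe were positive and significant. The median over the 3463 probes detected on 0 arrays was 9.30%. Before scaling between arrays, GLE replicate 2 and model replicate 1 gave the highest readings on both probes, and the groups overlapped. After scaling (linear), the 14-base probe was highest in model replicate 3 (0.0139), followed by GLE replicate 2 (0.0130). The 15-base probe was then highest in model replicate 1 (0.0234), with 0.0226 in model replicate 3 and 0.0223 in GLE replicate 2. The groups still overlapped, and all these scaled values lay below the floor.

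miR-124-3p, miR-137-3p and miR-153-3p read at the level of the negative controls. The 14-base probe of miR-124-3p gave −0.88, −0.13 and −0.30 in GLE tumours, against −0.05, −0.92 and −1.70 in model tumours. Its 15-base probe gave −1.27, −0.78 and −0.94 in GLE tumours, against 0.42, −1.53 and −1.12 in model tumours. The 2 probes of miR-137-3p spanned −3.08 to −0.76 over all 6 arrays, and those of miR-153-3p spanned −1.51 to 0.93. For these 3 miRNAs the share of spots that were positive and significant ran from 1.14% to 10.1% per probe, beside a median of 9.30% among probes detected on 0 arrays. At this sensitivity they were not well above background, which bounds their level without showing that they were absent.

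**Figure D5:**
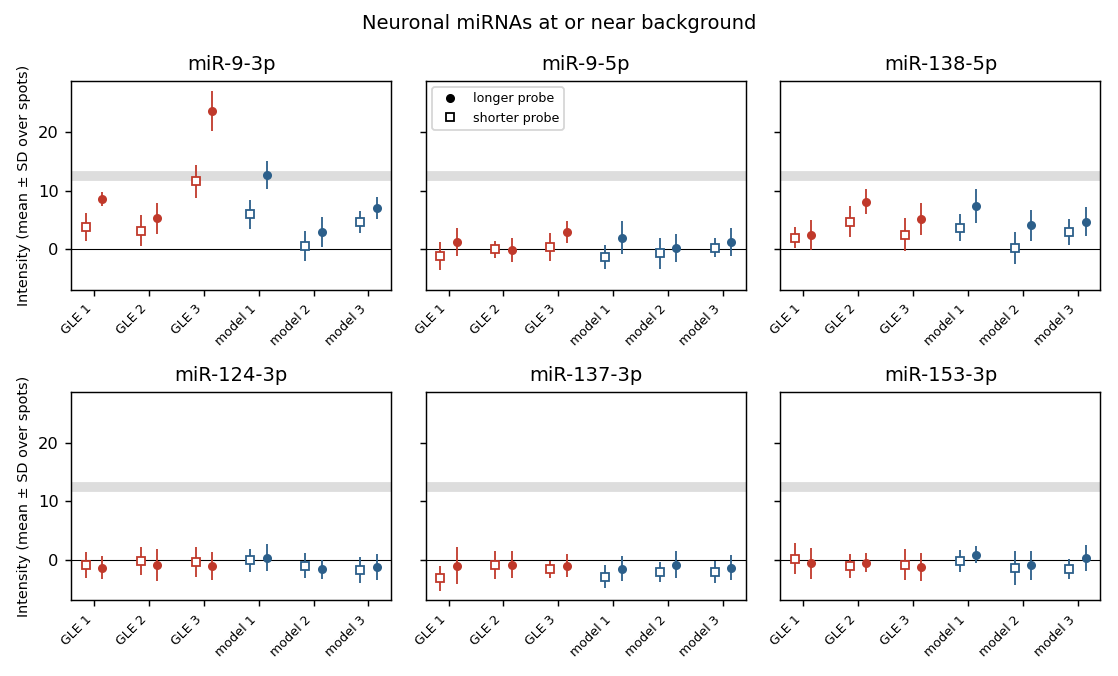
Mean intensity ± SD over spots for the longer probe (filled circles) and the shorter probe (open squares) of the 6 neuronal miRNAs that were not detected on all arrays, with GLE arrays (red) left of model arrays (blue). The grey band from 11.8 to 13.2 is the lowest intensity of a detected probe on each array. The longer probe of miR-9-3p on GLE replicate 3 (23.6) lies above the band, its reading on model replicate 1 (12.6) lies within it without passing the share of spots required, and miR-124-3p, miR-137-3p and miR-153-3p lie around 0.

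The authors' deposited table divided the members in nearly the same way. In the authors' deposited table, miR-124-3p, miR-9-5p, miR-137-3p, miR-138-5p and miR-153-3p stood at the column's lowest value on all 6 arrays. miR-9-3p stood there on 4 arrays in the authors' deposited table, with 3.27 on GLE replicate 3 and −0.82 on model replicate 1. For miR-212-3p the authors' deposited table listed 6.97, 6.83 and 6.78 in GLE tumours, against 6.82, 6.80 and 7.47 in model tumours. Model replicate 3 was the highest array there too, and the values are on a log2 scale of unstated scaling between arrays.

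miR-132-3p and miR-212-3p come from one locus, and the sign of their relation over the 6 arrays depended on scaling. The Pearson correlation was −0.91 for normalised levels and 0.47 for log2 intensities with no scaling between arrays. After scaling, it was −0.85 with the median over used spots and −0.81 with the median over all spots. On that scale miR-212-3p was highest and miR-132-3p lowest in the same tumour, model replicate 3, and among GLE tumours the order of the 2 miRNAs was reversed, with replicate 2 highest for miR-132-3p and lowest for miR-212-3p. miR-128-3p had correlations of −0.040 with miR-132-3p and 0.097 with miR-212-3p after scaling, against 0.76 and 0.58 without it. These values describe 6 arrays that share 1 slide and 1 scaling, and each array enters every level through the same divisor.

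The miRNAs whose normalised levels over the 6 arrays were most like those of a tested member were different for each. Those nearest to miR-128-3p among the 387 others were miR-107-3p (Pearson correlation 0.92), miR-6965-5p (0.90) and let-7d-5p (0.89), where the median over the 387 was 0.092. Those nearest to miR-212-3p were miR-652-5p (0.98), miR-1198-5p (0.98) and miR-5100 (0.97), with a median of 0.17. With the median over used spots these correlations were 0.71, 0.79 and 0.85 for miR-128-3p and 0.96, 0.86 and 0.95 for miR-212-3p. miR-5100 had 3.49, 3.16 and 3.45 in GLE tumours, against 3.13, 3.18 and 3.82 in model tumours, with model replicate 3 highest as for miR-212-3p.

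Those nearest to miR-132-3p were miR-192-5p (0.84), miR-194-5p (0.83) and miR-99a-5p (0.82), with a median of −0.25 over the 387. As for the other tested members, these were picked as the highest of 387 correlations over only 6 arrays, on scaled levels. Their correlations without scaling were not computed. miR-192-5p and miR-194-5p are hepatocyte markers. miR-192-5p had −3.01, 0.26 and −3.46 in GLE tumours, against −1.64, −2.51 and −3.69 in model tumours, so that it was highest in GLE replicate 2, the tumour with the most miR-132-3p, and lowest in model replicate 3, the tumour with the least. The same held for miR-194-5p, which lay at the floor of −4.25 in model replicate 3. The hepatocyte marker miR-148a-3p was highest in GLE replicate 2 too (−0.15) but lowest in GLE replicate 3 (−1.31), with −0.79 in model replicate 3. Of the 5 hepatocyte markers, 3 entered the test, miR-194-5p with detection on 2 of the 3 model arrays, and their summed linear level was 0.551 to 2.61 in GLE tumours and 0.709 to 1.22 in model tumours. The sum was highest in GLE replicate 2 (2.61) and lowest in GLE replicate 3 (0.551), with 0.709 in model replicate 3. miR-122-5p was detected in GLE replicate 2 and model replicate 1 alone. The part of hepatocyte RNA in the level of miR-132-3p was not tested.

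The other arms of the same hairpins were mostly below detection. Of the 9 on the array, miR-124-5p, miR-128-1-5p, miR-128-2-5p, miR-132-5p, miR-212-5p, miR-137-5p, miR-138-2-3p and miR-153-5p were detected on 0 arrays. The exception was miR-138-1-3p on GLE replicate 2, where 66.7% of the spots of a 13-base probe were well above background at an intensity of 16.1. Thus miR-132-3p, miR-212-3p and miR-128-3p were each detected without the opposite arm of the same hairpin. None of the 9 was bright enough to be tested.

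Among 29 further miRNAs known from the nervous system, 3 were detected on all 6 arrays, 5 on some and 21 on 0. The 21 amount to 72.4% of this list, against 73.5% of all miRNAs on the array. Of the 29, 5 entered the test and 0 passed the threshold. The 3 detected on all 6 arrays had differences from −0.30 to 0.13. miR-149-5p had −2.70, −2.86 and −3.22 in GLE tumours, against −2.55, −2.63 and −2.71 in model tumours, a difference of −0.30 ± 0.19 with groups that overlapped. miR-134-5p, a dendritic miRNA, had −2.47, −3.39 and −1.68 in GLE tumours, against −2.92, −2.37 and −2.64 in model tumours, a difference of 0.13 ± 0.42. miR-874-3p differed by 0.0039 ± 0.17.

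miR-338-3p, a miRNA of myelin-forming glia, and miR-326-3p each entered the test through the GLE group alone, with detection on 3 GLE arrays and 1 model array. No difference is given for them, because the model level was mostly at the floor or not above background. The levels of miR-338-3p were −3.12, −4.25 and −2.93 in GLE tumours, against −4.23, −4.25 and −4.25 in model tumours. GLE replicates 1 and 3 lay above the model tumours, and GLE replicate 2 lay at the floor of −4.25 with 2 of the 3 model tumours. Those of miR-326-3p were −3.75, −4.25 and −3.53 in GLE tumours, against −4.25, −4.15 and −3.95 in model tumours, and the groups overlapped. The other 2 markers of oligodendrocytes and Schwann cells, miR-219a-5p and miR-219a-2-3p, were detected on 0 arrays. Of the 4 markers of sensory and neuroendocrine cells, miR-375-3p was detected on 1 GLE and 2 model arrays and the other 3 on 0.

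Of the markers of other cell types, 4 of the 5 for blood cells, 4 of the 5 for fibroblasts and smooth muscle and 2 of the 3 for skeletal muscle had a positive difference, and 0 passed the threshold. The median difference was 0.53 over the 5 blood cell markers, 0.61 over the 5 of fibroblasts and smooth muscle and 0.52 over the 3 of skeletal muscle. The 2 hepatocyte markers detected on all 6 arrays differed by 0.54 ± 1.00 (miR-192-5p) and −0.083 ± 0.30 (miR-148a-3p). Their summed linear levels overlapped between groups, at 8.57 to 15.9 in GLE tumours and 6.76 to 16.2 in model tumours for blood cells, and at 1.45 to 4.25 in GLE tumours and 1.26 to 1.92 in model tumours for fibroblasts and smooth muscle. The blood cell sum is carried largely by miR-451a of red cells except in GLE replicate 3, at 2.74 to 10.3 in GLE tumours and 3.95 to 11.7 in model tumours. In GLE replicate 3, miR-451a stood at 2.74, below the 7.82 of the other 4. miR-451a has the negative difference among the 5, at −0.26 ± 0.56. The other 4 summed to 3.44 to 7.82 in GLE tumours and 2.81 to 4.48 in model tumours, also with overlap. For skeletal muscle the sums were 0.795 to 2.61 in GLE tumours and 0.501 to 1.20 in model tumours. Their part in the levels of the neuronal miRNAs was not tested.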

How the data were processed

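The authors deposited 1 scanner file per tumour from Agilent Feature Extraction 10.7.1.1 (per the submitters' processing notes), holding 56430 non-control spots for 4415 probes and 1881 miRNAs. The values used are intensity on a linear scale, background-subtracted and not scaled between arrays, per the file headers; 0 spots were saturated. The authors also deposited log2 values per miRNA, used as an alternative. Their log2 scale was inferred from the arrays (Spearman correlation 0.996 to 0.997 with summed probe totals, slope 0.999 to 1.27). Column medians were −3.20, −3.32 and −3.27 in GLE and −3.32, −3.17 and −3.13 in model arrays, each the column's lowest value, shared by 69.2% to 75.8% of miRNAs; their centring is unknown.

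Outlier spots by the scanner's flags, 1401 to 1883 on an array, were dropped, and the 11 to 15 remaining spots of each member's probes were averaged. Signals were scaled to an array's 75th percentile among 636 probes seen on every array (203, 364 and 241 intensity units in GLE, 313, 231 and 211 in model), and low values were set to a floor of −4.25 (log2). Probes detected throughout GLE or throughout model arrays were averaged per miRNA and the rest left out, so that 388 miRNAs were tested and 1493 were not. Groups were compared with limma 3.58.1 in R 4.3.3 (lmFit, eBayes, two-sided tests with 4 residual and 3.05 prior degrees), adjusted after Benjamini-Hochberg over all 388 at 0.05. The procedure was first run on simulated data in which each miRNA varied independently. Those data hold no shifts shared across an array, so they cannot show how the fit behaves under such shifts. No spot value pattern was shared between arrays (0% identical).

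The members, the marker lists and the list of nervous system miRNAs were chosen with earlier results of these data known. Named are all 9 members, the other arms of their hairpins, the 3 miRNAs most correlated with each tested member, and listed nervous system miRNAs seen throughout a group; marker lists are reported as counts with their leading members. miR-344-3p was not counted, since the array lists no miRNA under that name. Alternatives covered scaling, background, filters, floor, spot summary, the deposited values, the replicate number and each array left out.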

Additional observations from a re-analysis of the deposited data

How the results depend on the processing

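In all 20 alternatives run, 0 miRNAs passed limma's threshold, members included; the smallest adjusted p was 0.0621, without GLE replicate 2, where 109 of 399 miRNAs had an unadjusted p under 0.05. miR-128-3p stayed positive in all 20, from 0.050 with normexp to 0.43 without GLE replicate 3. miR-132-3p turned negative in 4: −0.0011 with normexp, −0.068 with the authors' deposited values, −0.0043 without GLE replicate 2 and −0.013 without model replicate 3. miR-212-3p turned positive in 3: 0.0035 and 0.016 with the median over used and over all spots, both chosen after seeing the data, and 0.14 without model replicate 3. The cause of these reversals was not tested. With 1 array left out, miR-132-3p ran from −0.013 to 0.19 and miR-212-3p from −0.20 to 0.14. The median difference of the tested members was −0.068 with the authors' deposited values and ran from −0.0027 to 0.15 with 1 array left out. The count of miRNAs past the threshold was 0 to 0 then. The members detected on all arrays numbered 5 when spots positive and significant sufficed, adding miR-9-3p and miR-138-5p, 2 when all used spots had to be well above background and 1, miR-212-3p, when all probes had to be detected. That count was 3 to 3 with 1 array left out, and the members detected on at least 1 array were 3 to 4, with 3 without GLE replicate 3. With the looser flag 6 members were detected on at least 1 array, miR-9-5p and miR-138-5p among them. The correlation of miR-132-3p with miR-212-3p was 0.47 with no scaling, an alternative added after seeing the data, as were the median over spots and the blood marker sum without miR-451a.

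The share of positive differences among all tested miRNAs was 51.0%, against 38.7% with the 75th percentile over all probes, 42.0% after quantile normalisation and 64.9% with no scaling. No label says that the replicate numbers pair mice. Deviations from the group means correlated at −0.62, −0.18 and 0.37 between same-numbered tumours, and not every tumour was closest to its own number. With deviations from means of 3 arrays, these correlations cannot decide whether mice were paired. With the replicate number as a block 0 miRNAs passed, at a smallest adjusted p of 0.887, and it was 0.980 for each of the 3 members with differences of 0.25, 0.091 and −0.086. Replicates 1, 2 and 3 of both groups lay in slide columns 1, 3 and 4, so replicate number and slide column cannot be told apart in this block. The slide could not serve as a block, since there was 1. Signal over background was low for miR-128-3p and miR-132-3p, whose used probes read 17.3 to 38.5 and 20.2 to 49.0, where the lowest detected intensity was 11.8 to 13.2.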
